A study of Mus musculus with 30 samples.

Results

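Ribosome biogenesis factors are the proteins that transcribe, cut, modify and fold ribosomal RNA and assemble it with ribosomal proteins into subunits. A list of 43 gene symbols defined the set, and 42 of them had a row on the array, among 19938 genes measured; Noc2l, the remaining one, was not analysed here. The symbols were listed by name and not by their values in these arrays, although earlier results of these data were known when the list was written. Each symbol was read through the array platform's probe table, and its row with the highest mean was used.

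The arrays measured total RNA of subcutaneous flank tumours grown from EL4, a line of mouse T lymphoma cells. Mice were given a cocktail of antibiotics for 3 weeks or no antibiotics (labelled H2O, here called water), then inoculated with EL4 cells, and 7 days later were injected into the abdomen with oxaliplatin, a platinum drug that crosslinks DNA, at 10 mg per kg of body weight. Tumours were collected 0, 6 or 18 h after the injection, which gave 6 groups of 5 arrays: water at 0, 6 and 18 h and antibiotics at 0, 6 and 18 h. The titles mark all samples as WT without saying what was wild type; the antibiotics, the strain, sex and age of the mice and the housing are not given in the sources used here. All 6 groups share the EL4 tumour, and no group without oxaliplatin was collected at 6 or 18 h, so the time since the drug cannot be told apart from the further growth of the tumour or the hour of collection. Nothing states that the 5 arrays of a group came from separate mice, so the p-values measure only the spread between these samples, which may be technical.

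In a cell, ribosomal RNA is made in the nucleolus by RNA polymerase I as 1 long precursor. Small nucleolar ribonucleoproteins (snoRNPs) modify the precursor, the small subunit processome cuts out the part that becomes the 40S subunit, and a separate series of assembly factors builds the 60S subunit. Growing cells, lymphoma cells among them, devote much of their synthesis to this pathway, and its genes are well known as targets of the transcription factor Myc. Oxaliplatin is known to disturb the nucleolus of cultured cells.

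Values are log2 values as the authors deposited them, so a difference of 1 is a doubling; a level is the log2 value of a gene on an array, and a change is the difference between 2 group means. Array medians lay between 7.253 and 7.365, and no 2 arrays correlated below 0.9846. Of 12 T cell markers 9 had a row with 1 symbol, and all 9 lay above the median of the measured genes. A pair of arrays, water at 6 h replicate 1 and antibiotics at 6 h replicate 1, stood apart in keratinocyte markers, with a list mean of 2.33 and 2.14 above the series average, while the lowest array stood at -0.595. Antibiotics at 6 h replicate 5 stood apart in skeletal muscle markers, at 1.64, where the lowest array stood at -0.759. In whole tumours, fewer cells of a type and less RNA per cell cannot be told apart.

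The ribosome biogenesis factors had their lowest mean level in water-treated tumours 18 h after oxaliplatin, and the antibiotic-treated tumours collected at the same time stood above it. The level of each gene relative to its own mean over the 30 arrays was averaged over the 42 members. In water at 0 h this mean was 0.0139 ± 0.0334 (SD, n = 5), with arrays between -0.0256 and 0.0573. In water at 6 h it was -0.0109 ± 0.0332 (SD, n = 5), with arrays between -0.0451 and 0.0422, a range that overlaps that at 0 h. In water at 18 h it was -0.136 ± 0.0418 (SD, n = 5), and its 5 arrays, from -0.172 to -0.072, lay below all arrays of the other water groups. The antibiotic groups stood at 0.0915 ± 0.0471 at 0 h, at 0.0231 ± 0.0926 at 6 h and at 0.0185 ± 0.0421 at 18 h (SD, n = 5 each). Their arrays ran from 0.0157 to 0.133 at 0 h, from -0.13 to 0.0956 at 6 h and from -0.0315 to 0.0643 at 18 h, so the 18 h groups of water and antibiotics did not overlap. The wide spread of antibiotics at 6 h came from replicate 5, the array with high muscle markers, which alone stood at -0.13.

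**Figure D1:**
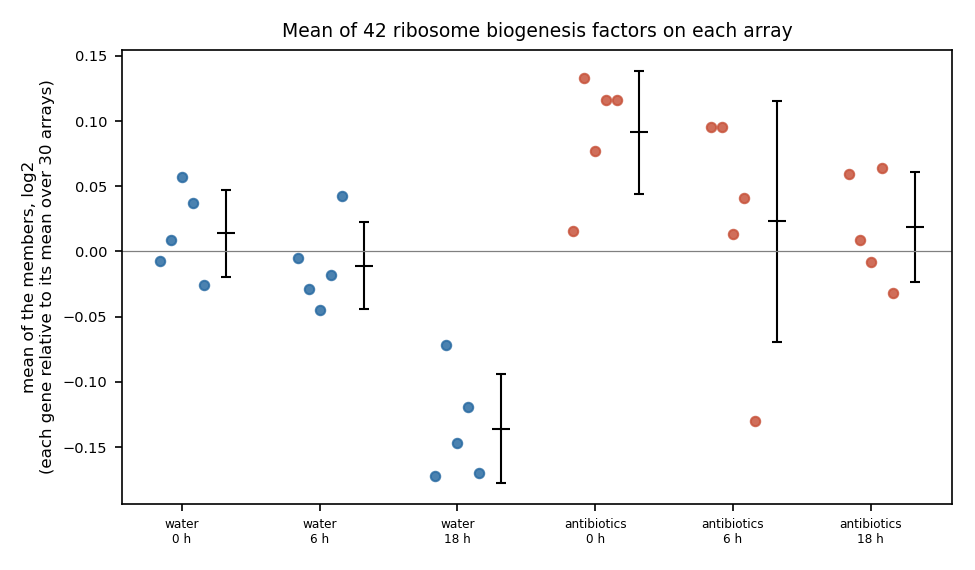
Mean relative level of the 42 ribosome biogenesis factors (vertical axis, log2 units from each gene's mean over 30 arrays) by group (horizontal axis); each point is 1 array, and the horizontal dash with its bar is the group mean with its SD. The 5 arrays of water at 18 h, between -0.172 and -0.072, lie below the 5 arrays of antibiotics at 18 h, between -0.0315 and 0.0643.

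With limma's moderated test on all genes and Benjamini-Hochberg adjustment, 25 of the 42 members were lower in water at 18 h than at 0 h and 0 were higher, at an adjusted p under 0.05; of all genes measured, 7.94% were called lower in that comparison and 6.18% higher. The median change of the members was -0.154, against 0.0116 over all genes, and 40 of 42 members had a change below 0. For 21 members the 5 arrays at 18 h all lay below the 5 at 0 h, which held for 6.69% of all genes. All 42 members lay above the median level of the measured genes. The shares of all genes, here and below, therefore include dimmer genes, unlike the members. The changes were small: the largest fall was 0.32 on the log2 scale. A fit of only the 2 groups compared, which estimates the spread from fewer arrays, called 15 members, and the share of all genes in it is not given.

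The promoters of the members were read from RefSeq (build GRCm38.p6), which held 38 of the 42 members with 41 promoters, each of 250 bases before and 50 bases after the transcription start. The E-box CACGTG, the site that Myc and related factors bind, was searched on both strands, on which it reads the same. It lay in 8 of the 41 promoters (19.5%), and in 7.15% of all 32851 promoters of the same length. It was found in 6 of 22 promoters of members that fell in water at 18 h (27.3%) and in 2 of 19 of the other members (10.5%). The 5 members below had it no later than 30 bases after the start, and are shown with the E-box in capitals, each 5′ to 3′ on the strand of its gene, so that the motif can be seen beside members that passed and did not pass the tests at 18 h. The stretch of Wdr43 is chr17:71616185-71616244 on the plus strand, with the E-box beginning 18 bases after the start. That of Pes1 is chr11:3963930-3964004, plus strand, with the E-box 3 bases after the start. That of Utp18 is chr11:93885737-93885833, minus strand, with the E-box beginning 20 bases before it.
Wdr43: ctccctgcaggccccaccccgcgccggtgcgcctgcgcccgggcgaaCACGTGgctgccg
Pes1: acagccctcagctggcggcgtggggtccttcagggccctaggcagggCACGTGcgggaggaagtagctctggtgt
Utp18: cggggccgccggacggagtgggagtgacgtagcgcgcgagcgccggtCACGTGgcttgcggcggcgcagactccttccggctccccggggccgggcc
Nop2: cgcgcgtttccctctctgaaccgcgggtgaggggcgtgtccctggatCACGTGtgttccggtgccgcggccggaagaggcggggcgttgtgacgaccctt
Tsr1: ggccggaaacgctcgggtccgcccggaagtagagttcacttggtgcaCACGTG

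The stretch of Nop2 is chr6:125131776-125131875, plus strand, with the E-box 60 bases before the start, and that of Tsr1 is chr11:74898057-74898109, plus strand, with the E-box 25 bases after it. Wdr43, Pes1 and Utp18 were lower in water at 18 h and higher with antibiotics at 18 h, Nop2 was lower in water only among these tests, and Tsr1 passed neither. The ETS-type motif CCGGAAG, also searched on both strands, lay in 13 of the 41 promoters (31.7%) and in 8.86% of all promoters; it lay in 4 of 22 promoters of members that fell (18.2%) and in 9 of 19 of the others (47.4%). The motif TCTCGCG lay in 5 of 41 (12.2%) and in 2.56% of all. The median GC content was 59.7% in the members' promoters and 52.7% in all. A match is a description of these letters and no evidence that a factor bound there.

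Of the 4 members of RNA polymerase I 2 fell, the largest subunits. Polr1b, its second largest subunit, had levels of 10.77, 10.82, 10.90, 10.79 and 10.81 in water at 0 h (here and below in the order of the replicate numbers, which have no meaning) and of 10.58, 10.59, 10.53, 10.56 and 10.47 at 18 h. The groups did not overlap, and the change was -0.27 ± 0.051 (SE; adjusted p 0.000487, limma). Polr1a, the largest subunit, went from 10.03, 9.99, 10.22, 10.08 and 10.04 to 9.81, 9.88, 9.84, 9.92 and 9.81, again without overlap, a change of -0.22 ± 0.0548 (adjusted p 0.00667, limma). Polr1c, a subunit shared with RNA polymerase III, had a change of -0.03 with a 95% interval from -0.133 to 0.0756, and its 18 h arrays, 10.20 to 10.33, overlapped those at 0 h, 10.20 to 10.39. Polr1e, which pairs with another subunit to start transcription, had the highest change of the 4, at 0.06 (95% interval -0.0536 to 0.164).

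Of the 8 snoRNP members 5 fell, and Nop58 had the largest fall of all 42. Nop58 is a core protein of the box C/D snoRNPs, which methylate ribosomal RNA. Its levels were 11.16, 11.18, 11.29, 11.28 and 11.12 in water at 0 h and 10.77, 10.94, 10.80, 10.93 and 10.96 at 18 h. No array at 18 h reached the lowest at 0 h, and the change was -0.32 ± 0.0584 (SE; adjusted p 0.000292, limma). Fbl, fibrillarin, the methyltransferase of the same particle, went from 11.00, 11.07, 11.04, 11.06 and 10.89 to 10.76, 10.71, 10.76, 10.76 and 10.72. Its groups did not overlap either, and with a change of -0.27 ± 0.0393 it had the smallest adjusted p of the members, 2.56e-05 (limma). A second row for Fbl on the array had a change of only -0.07 with an SE of 0.05645. The fall of Fbl, and not only its size, therefore depends on which probes were read. Rrp9, the protein that marks the U3 snoRNP, stood at 9.53, 9.54, 9.63, 9.65 and 9.43 at 0 h and at 9.27, 9.29, 9.24, 9.39 and 9.21 at 18 h, a change of -0.28 ± 0.0493 (adjusted p 0.000268, limma). Nolc1, a chaperone of snoRNPs, and Dkc1, the pseudouridine synthase of box H/ACA particles, fell by 0.25 and 0.24, also without overlap between the times. Nop56, the partner of Nop58, had the highest change of the group, -0.08 (adjusted p 0.203), and Gar1 and Nhp2, the small H/ACA proteins, had -0.12 each (adjusted p 0.117 and 0.054).

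All 5 abundant nucleolar proteins and proteins linked to ribosomal DNA fell. Lyar, a nucleolar zinc finger protein of growing cells, had levels of 10.58, 10.67, 10.74, 10.70 and 10.61 in water at 0 h and of 10.37, 10.51, 10.43, 10.44 and 10.40 at 18 h, without overlap. Its change was -0.23 ± 0.0462 (SE; adjusted p 0.00113, limma). Npm1, nucleophosmin, which carries ribosomal subunits and histones, went from 12.18, 12.18, 12.18, 12.14 and 12.16 to 11.83, 12.00, 11.89, 12.08 and 12.06. The 18 h arrays of Npm1 were scattered over a wider range than those at 0 h but all lay lower, with a change of -0.20 ± 0.0471 (adjusted p 0.00476, limma). Other rows for Npm1 carry several symbols and were not used, and probes of near-identical copies of a gene can share its signal. Mybbp1a, a regulator of polymerase I transcription, read 11.10, 11.13, 11.29, 11.13 and 11.08 at 0 h and 11.05, 11.08, 11.05, 10.93 and 10.88 at 18 h. It changed by -0.15 ± 0.0466 (adjusted p 0.029, limma), and its 18 h arrays lay below those at 0 h, although the closest pair of arrays both read 11.08 to 2 decimals. Ncl, nucleolin, and Ddx21, an RNA helicase, changed by -0.14 each (adjusted p 0.0366 and 0.032), and their arrays at 0 and 18 h overlapped. The calls of Ncl, Ddx21 and Mybbp1a were the less firm ones: they were lost without any 1 of 6, 6 and 3 arrays of the 10 compared, with adjusted p up to 0.137, 0.1 and 0.106.

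Of the 13 members of the small subunit processome and of 40S maturation 7 fell. Rrp12, which takes part in the export and late maturation of pre-ribosomes, stood at 9.22, 9.27, 9.35, 9.24 and 9.10 in water at 0 h and at 9.01, 9.00, 8.95, 8.99 and 8.89 at 18 h. The change was -0.27 ± 0.05 (SE; adjusted p 0.000429, limma), and no 18 h array reached the 0 h arrays. Utp18, a WD-repeat protein of the processome, went from 9.77, 9.78, 9.89, 9.92 and 9.86 to 9.40, 9.70, 9.57, 9.55 and 9.63, and its change, -0.27 ± 0.0697 (adjusted p 0.00815, limma), was as large as that of Rrp12 with a larger error. Wdr43, a processome protein whose promoter stretch is printed above, had levels of 11.29, 11.32, 11.36, 11.35 and 11.32 at 0 h and of 11.06, 11.20, 11.11, 11.12 and 11.09 at 18 h. The arrays of Wdr43 were clear of each other, with a change of -0.21 ± 0.0456 (adjusted p 0.00175, limma). Noc4l, a nucleolar partner of Nop14, went from 10.05, 10.06, 10.04, 9.95 and 10.03 to 9.84, 9.89, 9.82, 9.89 and 9.70. It changed by -0.20 ± 0.0461 (adjusted p 0.00401, limma), also without overlap. Utp15, Heatr1 and Pno1 were called as well, with changes of -0.16, -0.15 and -0.21, and each of these calls was lost when 1 of several arrays was left out (6, 3 and 3 of 10, with adjusted p up to 0.128, 0.0744 and 0.0953).

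Utp20 was the exception in this group. A large scaffold protein of the processome, it stood at 10.12, 10.08, 10.21, 10.16 and 10.04 in water at 0 h, at 10.42, 10.25, 10.32, 10.36 and 10.34 at 6 h and at 10.20, 10.30, 10.26, 10.35 and 10.19 at 18 h. All 5 arrays at 6 h lay above those at 0 h, and those at 18 h overlapped them. Its change of 0.14 ± 0.0684 at 18 h did not pass the test (adjusted p 0.212, limma) but was the highest of the 42, and Polr1e was the only other member with a change above 0. Arrays were also weighted by how little they scattered around their group means in these same data. With these array weights the Utp20 change at 18 h was 0.15 and passed (adjusted p 0.0464, limma). The remaining 40S members, Bms1, Nop14, Tsr1, Nob1 and Dimt1, had changes of -0.08, -0.12, -0.09, -0.13 and -0.03, and none passed the test.

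Of the 12 members of 60S assembly 6 fell. Ddx18, an RNA helicase, had levels of 11.07, 11.11, 11.07, 11.18 and 11.03 in water at 0 h and of 10.84, 10.90, 10.79, 10.87 and 10.85 at 18 h. The gap between its groups was wider than the range of the 18 h arrays, and the change was -0.24 ± 0.0401 (SE; adjusted p 0.000111, limma); a second row gave -0.23. Pes1, pescadillo, which forms a complex with Bop1 and Wdr12 that is needed to process the RNAs of the 60S subunit, went from 10.22, 10.29, 10.52, 10.30 and 10.34 to 10.18, 10.21, 10.16, 10.15 and 10.04, with a change of -0.19 ± 0.0473 (adjusted p 0.00724, limma). Of its partners, Bop1 fell by 0.17 (adjusted p 0.0124), with overlapping arrays. Wdr12 had -0.04 in the row used and -0.18 in its second row, so its rows do not give 1 answer. Rrp1b, a nucleolar protein linked to 60S processing, went from 10.16, 10.20, 10.29, 10.14 and 10.21 to 9.91, 10.12, 10.05, 10.01 and 9.94. It changed by -0.19 ± 0.0503 (adjusted p 0.00857, limma). Nop2, an RNA methyltransferase, and Gnl3, nucleostemin, changed by -0.17 and -0.14. Both calls were lost without 1 of 3 (Nop2) or 1 of 6 (Gnl3) of the 10 arrays, with adjusted p up to 0.0792 and 0.0871. Nip7, a late 60S factor, had the highest change of the group, -0.01, with a 95% interval from -0.105 to 0.0759. Noc3l, Nop16, Wdr74 and Ftsj3 had -0.16, -0.08, -0.11 and -0.03 and did not pass.

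**Figure D2:**
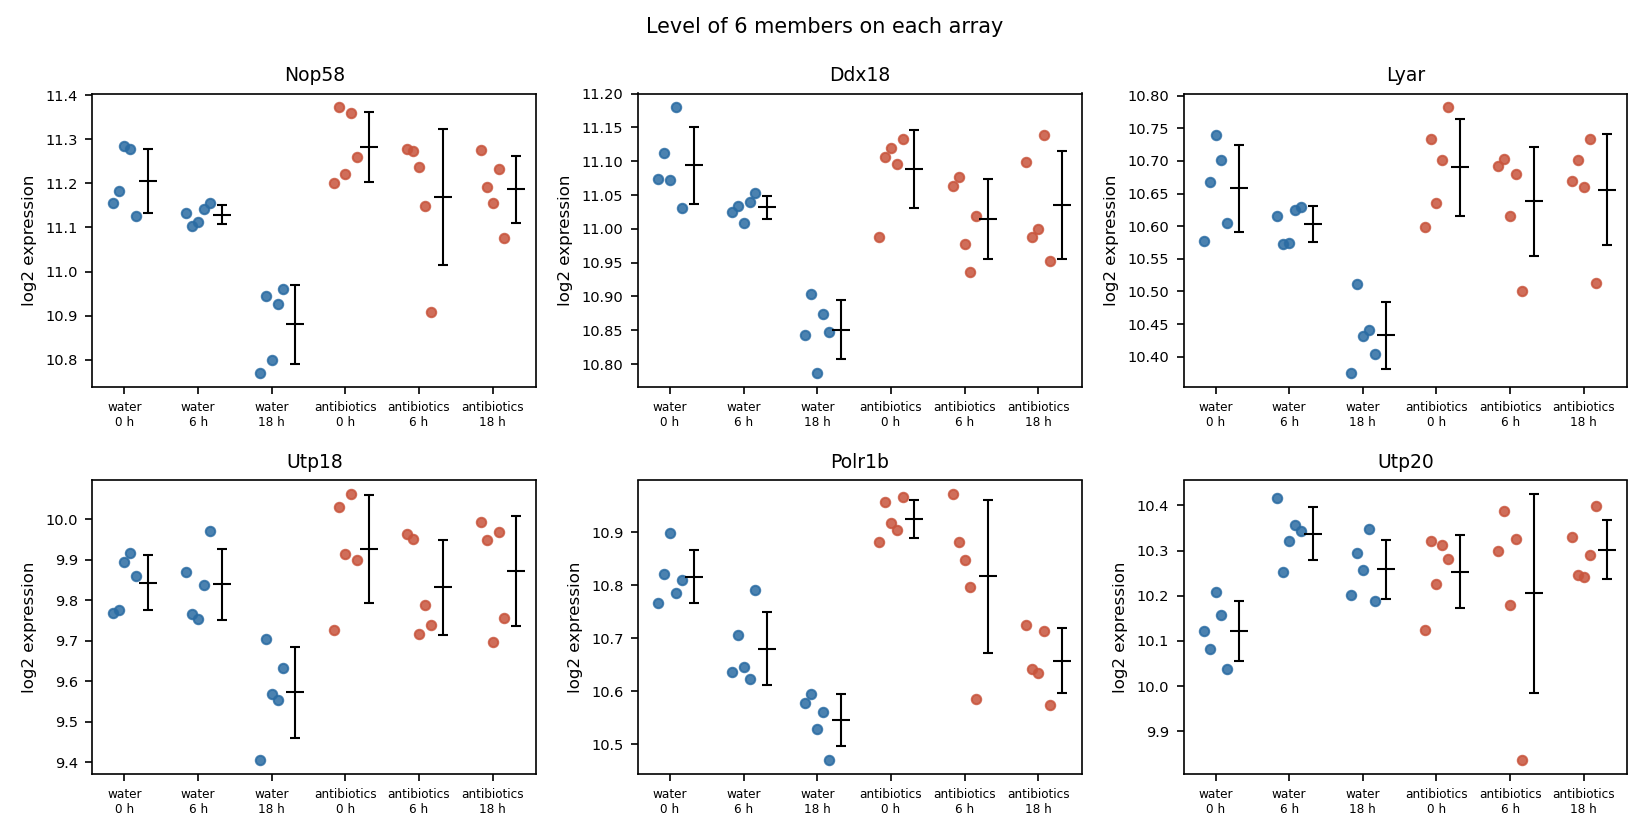
Levels (vertical axis, deposited log2 values, each panel with its own range that does not start at 0) of Nop58, Ddx18, Lyar, Utp18, Polr1b and Utp20 in the 6 groups (horizontal axis); each point is 1 array, and the dash with its bar is the group mean with its SD. Nop58 and Ddx18 in water at 18 h lie below all other water arrays, Polr1b is low at 18 h in both arms, and Utp20 is higher in water at 6 h than at 0 h.

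At 6 h in water none of the 42 members passed the test against 0 h; 0.416% of all genes were called lower and 0.697% higher. The median change was -0.0197. An unadjusted p under 0.05 was found for 10 members and for 2113 of all 19938 genes (limma). The smallest adjusted p of the members was 0.139. The lowest change was that of Rrp12, with arrays of 9.09, 9.10, 8.99, 9.09 and 9.10 at 6 h and a change of -0.16 ± 0.05 (SE). The highest was that of Utp20, at 0.22 ± 0.0684 (adjusted p 0.147, limma). A fit of only these 2 groups called Utp20 (adjusted p 0.0386, limma). Bop1, named after its values were seen, changed about as much by 6 h as by 18 h. Its 6 h arrays of 10.51, 10.47, 10.46, 10.40 and 10.51 all lay below the 0 h arrays of 10.57, 10.52, 10.73, 10.63 and 10.62, with a change of -0.15 at 6 h (adjusted p 0.147, limma) and of -0.17 at 18 h.

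Between 6 and 18 h in water 15 members fell and 0 rose, where 6.46% of all genes were called lower and 3.12% higher (6.73% and 1.94% with array medians subtracted); the median change was -0.131. For 22 members all 18 h arrays lay below all 6 h arrays, against 8.04% of all genes. The lowest change was that of Utp18, from 9.87, 9.77, 9.75, 9.84 and 9.97 at 6 h, at -0.27 (adjusted p 0.0156, limma), and the highest that of Polr1e, at 0.05. Nop58 changed by -0.25 and Ddx18 by -0.18 (adjusted p 0.00792 and 0.0054, limma). The count rested on single arrays: it was 5 without replicate 1 of water at 18 h, 9 without replicate 3 of that group and 7 without replicate 5 of water at 6 h. Shares of all genes in these fits are not given. The calls of Nop58, Fbl, Npm1, Utp15 and Ddx18 held with any 1 array left out, but that of Fbl was lost with the mean over its rows (-0.11, adjusted p 0.0925) and that of Npm1 in a fit of only the groups compared (adjusted p 0.0511).

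In antibiotic-treated tumours 2 of 42 members, Polr1b and Rrp12, were lower at 18 h than at 0 h, where 0.908% of all genes were called lower and 0.316% higher (1.07% and 0.155% with array medians subtracted). Polr1b had levels of 10.88, 10.96, 10.92, 10.90 and 10.97 at 0 h and of 10.72, 10.64, 10.63, 10.71 and 10.57 at 18 h, a change of -0.27 ± 0.051 (SE; adjusted p 0.00502, limma). Rrp12 went from 9.36, 9.45, 9.35, 9.29 and 9.35 to 9.15, 9.06, 9.14, 9.13 and 9.01, a change of -0.26 ± 0.05 with the same adjusted p. Neither overlapped between the times, and in water the same genes changed by -0.27 each. The members as a whole leaned down, with 36 of 42 changes below 0 and a median of -0.0713 against 0.0115 over all genes. Of all 19938 genes 2223 had an unadjusted p under 0.05, and 13 members had one (limma). For 6 members the groups did not overlap, against 1.82% of all genes. Under the array weights 7 members were called, and the share of all genes under them is not given. The highest change was that of Polr1e, 0.12, which did not pass.

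Nop58, with the largest fall in water, stood at 11.20, 11.37, 11.22, 11.36 and 11.26 with antibiotics at 0 h and at 11.27, 11.19, 11.15, 11.23 and 11.08 at 18 h. These groups overlapped, and the change was -0.10 with a 95% interval from -0.216 to 0.0232. Ddx18 went from 10.99, 11.11, 11.12, 11.10 and 11.13 to 11.10, 10.99, 11.00, 11.14 and 10.95, with a change of -0.05 (95% interval -0.135 to 0.029). Lyar had -0.03 and Utp18 -0.05, both with overlapping arrays. Across the arms, which share no arrays, 36 members had a change below 0 in both, and for 34 of 42 the change in water was the more negative one, where 50.5% of all genes had the more positive change with antibiotics.

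Antibiotics at 6 h against 0 h called 0 members and 0 genes of all (0%). Still, 38 of 42 changes were below 0, with a median of -0.071. A total of 2011 of all 19938 genes and 9 members had an unadjusted p under 0.05 (limma). The lowest change was that of Tsr1, a GTPase-like factor of 40S maturation, at -0.16, with arrays of 10.19, 10.30, 10.28, 10.34 and 10.30 at 0 h and of 10.29, 10.25, 10.19, 10.07 and 9.79 at 6 h. The last of these is the muscle-rich replicate 5, and without it the median of the members was -0.0297. The highest change was that of Polr1c, at 0.06. From 6 to 18 h with antibiotics again 0 members passed (0.888% of all genes were called lower and 1.23% higher), with a median of 0.00657. At an unadjusted p under 0.05 stood 10 members and 3196 of all 19938 genes (limma). The shares of all genes called turned to 0.552% and 0.411% with array medians subtracted, and to 1.82% and 1.58% with quantile normalisation. The extremes were Polr1b at -0.16 (adjusted p 0.101) and Bms1, a GTPase of the processome, at 0.21 (adjusted p 0.0569). Without replicate 5 of antibiotics at 6 h the median of the members turned to -0.0353 and 4 members were lower, Polr1b among them at -0.22 (adjusted p 0.00651, limma), and without replicate 1 or 2 of that group 1 and 2 members were higher, Bms1 among them. No share of all genes is given for the fits with an array left out.

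**Figure D3:**
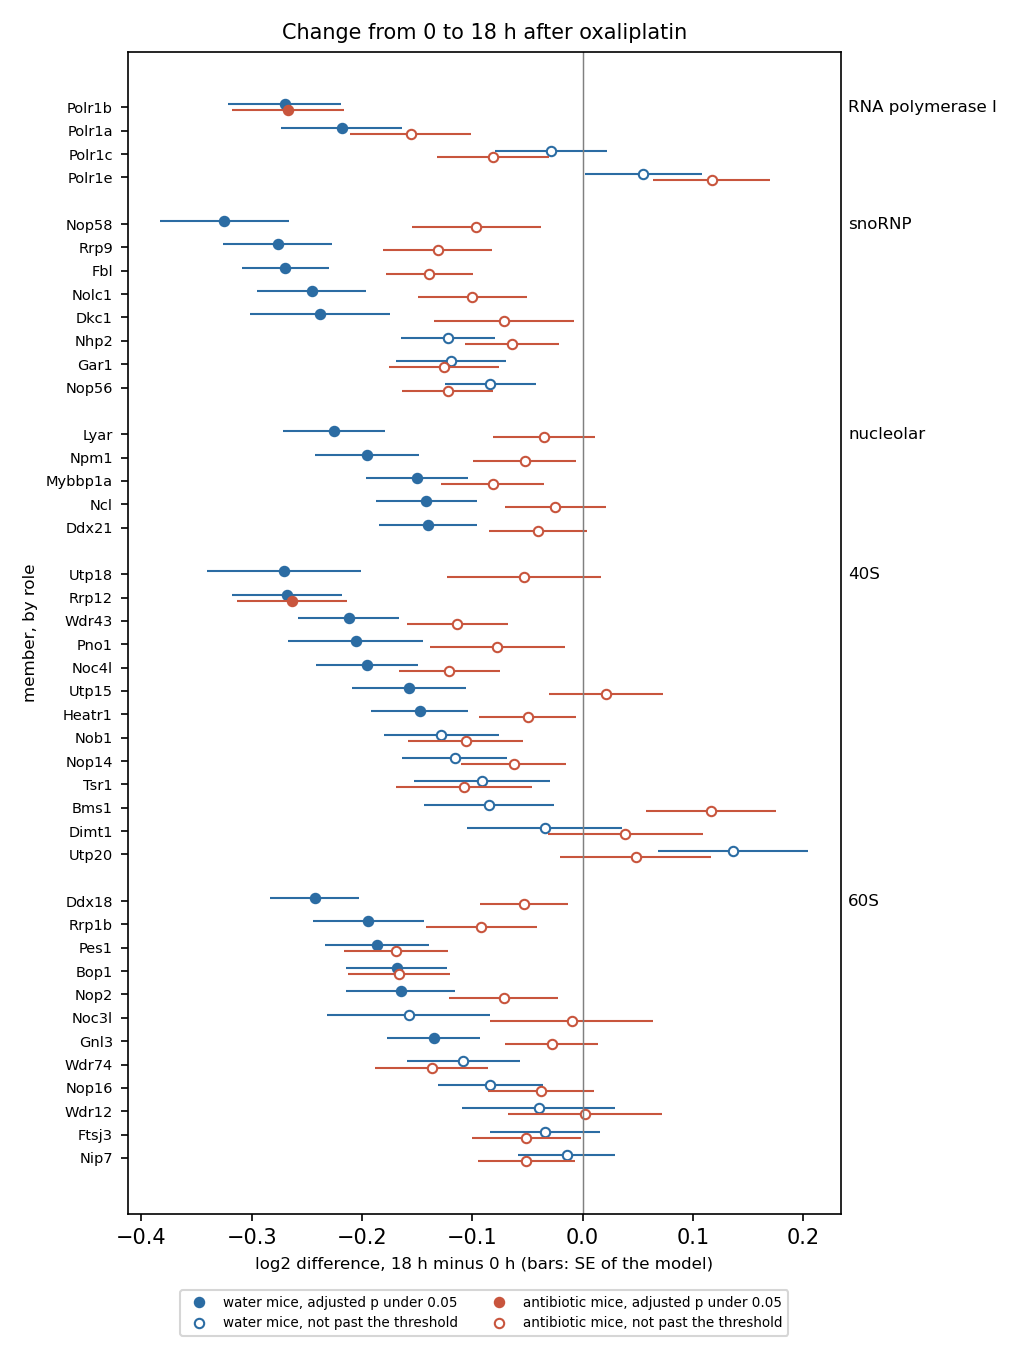
Change from 0 to 18 h after oxaliplatin (horizontal axis, log2 difference) for each of the 42 members, by role (vertical axis), in water (blue) and with antibiotics (red); bars are the SE of the model, and filled points passed the adjusted p threshold of 0.05. Filled points number 25 in water and 2 with antibiotics; Nop58 lies at -0.32 and -0.10 in the arms, while for Polr1b the points nearly coincide at -0.27.

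At 18 h after oxaliplatin, 19 of the 42 members were higher in antibiotic-treated than in water-treated tumours and 0 were lower, where 4.52% of all genes were called higher and 3.34% lower. The median difference was 0.167 against -0.0059 over all genes, 40 of 42 differences were above 0, and for 19 members the groups did not overlap, against 4.73% of all genes. By role these were 0 of 4 in RNA polymerase I, 5 of 8 in snoRNPs, 3 of 5 nucleolar proteins, 6 of 13 in the 40S group and 5 of 12 in the 60S group. The count was 12 without replicate 1 of antibiotics at 18 h, 9 in a fit of only the 2 groups, and 29 when only the genes above the median level were tested. That filter kept all 42 members, and no share of all genes is given for these settings. The water arrays at 18 h are those of the time comparison above, so the results share them and are not independent.

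Nop58 had the smallest adjusted p, with 10.77, 10.94, 10.80, 10.93 and 10.96 in water at 18 h against 11.27, 11.19, 11.15, 11.23 and 11.08 with antibiotics. All antibiotic arrays lay above all water arrays, a difference of 0.31 ± 0.0584 (SE; adjusted p 0.00196, limma). Gnl3, nucleostemin, a GTP-binding nucleolar protein of stem and tumour cells, stood at 10.19, 10.33, 10.23, 10.25 and 10.31 in water and at 10.48, 10.47, 10.48, 10.56 and 10.40 with antibiotics. Gnl3 was also clear of overlap, at 0.22 ± 0.0422 (adjusted p 0.00234, limma). For Wdr43 the antibiotic arrays read 11.37, 11.35, 11.34, 11.39 and 11.27 and the difference was 0.22 ± 0.0456 (adjusted p 0.00315, limma). Lyar read 10.67, 10.70, 10.66, 10.73 and 10.51 with antibiotics, the last of them only just above the highest water array, and differed by 0.22 ± 0.0462 (adjusted p 0.00358, limma). Utp15, a processome protein needed for ribosomal RNA transcription, stood at 9.92, 10.11, 9.96, 10.08 and 10.13 in water and at 10.32, 10.30, 10.25, 10.33 and 10.23 with antibiotics. Utp15 differed by 0.24 ± 0.0518 (adjusted p 0.00413, limma), and Ddx18 by 0.18 ± 0.0401 (adjusted p 0.00494, limma).

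The largest difference was that of Noc3l, a nucleolar factor of 60S assembly, which read 9.80, 10.01, 9.86, 9.92 and 9.99 in water and 10.26, 10.25, 10.25, 10.23 and 10.14 with antibiotics. The groups did not overlap, and the difference was 0.31 ± 0.0738 (SE; adjusted p 0.00948, limma). Utp18 followed at 0.30 (adjusted p 0.00779, limma), with 1 antibiotic array, 9.70, at the level of the highest water array. Dkc1, Bms1 and Nop14 differed by 0.24, 0.23 and 0.22, and Ddx21, Pes1, Nolc1, Rrp1b, Ncl, Heatr1, Rrp9 and Fbl by 0.16 to 0.19. The calls of Nop58, Ddx21, Lyar, Utp15, Utp18, Wdr43, Nop14, Noc3l, Ddx18 and Gnl3 held with any 1 array left out. Among these, Utp18 (adjusted p 0.0525, limma) and Ddx18 (0.0657) lost their call in a fit of only the groups compared. The remaining 9 calls were lost without 1 or more arrays: that of Rrp9 without 7 of 10, that of Rrp1b without 5, and that of Fbl, with an adjusted p of 0.055, without replicate 1 of antibiotics at 18 h. The Fbl call was also lost with the mean over its rows (0.11, adjusted p 0.0991) and in a fit of only the groups compared (adjusted p 0.0602), and its second row differed by 0.07 ± 0.0565. The lowest differences were those of Polr1c, -0.02 (95% interval -0.128 to 0.08), and Polr1e, -0.02. Bop1 differed by 0.00062 (95% interval -0.0936 to 0.0948), the member closest to 0.

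**Figure D4:**
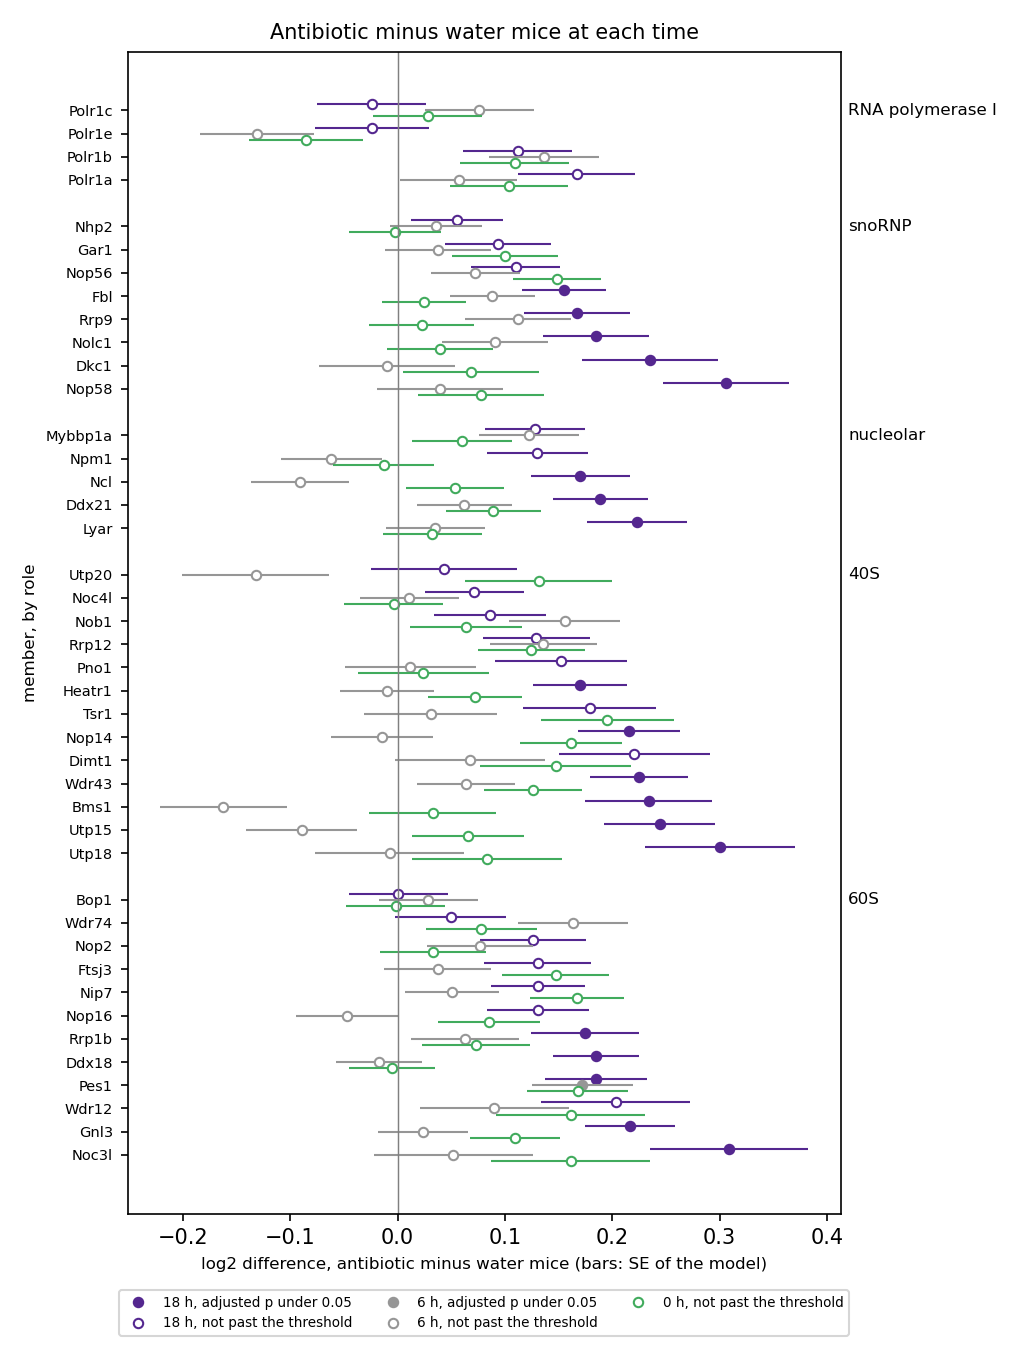
Difference between antibiotics and water (horizontal axis, log2) at 0 h (green), 6 h (grey) and 18 h (purple) for each of the 42 members, by role (vertical axis); bars are the SE of the model, and filled points passed the adjusted p threshold of 0.05. At 18 h 40 of 42 members lie to the right of 0, from Noc3l at 0.31 down to Polr1c at -0.02.

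At 0 h no member passed the test between antibiotics and water, and 0.0903% of all genes were called higher and 0% lower (0.125% and 0.015% with quantile normalisation). The members nevertheless leaned one way: 36 of 42 differences were above 0, with a median of 0.0753 against -0.00567 over all genes. Of all 19938 genes 1317 had an unadjusted p under 0.05, 660 of them lower. Of the members 13 had one, all of them higher (limma). The smallest adjusted p was 0.206, for Nip7, with 9.75, 9.72, 9.75, 9.82 and 9.72 in water and 9.89, 9.89, 9.97, 9.98 and 9.88 with antibiotics. Nip7 differed by 0.17 ± 0.044 (SE) and did not overlap; the same absence of overlap was seen for 6 members, against 0.883% of all genes. Tsr1 had the highest difference, 0.20 ± 0.0618 (adjusted p 0.372, limma), and Polr1e the lowest, -0.09. Nop56, with 11.80, 11.86, 11.84, 11.78 and 11.82 in water and 11.89, 11.97, 11.95, 12.01 and 12.03 with antibiotics, differed by 0.15 (adjusted p 0.256, limma). With array weights 5 members passed, Tsr1 among them (adjusted p 0.0404, limma), and without replicate 3 of water at 0 h 1 did. Neither setting has a share of all genes beside it.

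At 6 h 1 member, Pes1, was higher with antibiotics, where 1.13% of all genes were called higher and 2.64% lower (1.9% and 2.2% with quantile normalisation). Pes1 read 10.26, 10.37, 10.25, 10.24 and 10.27 in water and 10.50, 10.42, 10.39, 10.52 and 10.43 with antibiotics. All antibiotic arrays were the higher ones, with a difference of 0.17 ± 0.0473 (SE; adjusted p 0.0381, limma). The call was lost when any 1 of 7 of the 10 arrays was left out, with adjusted p up to 0.103 (limma). It was also lost with array medians subtracted (adjusted p 0.0574), in a fit of only the groups compared (0.132) and without the 3 arrays rich in skin or muscle markers (0.106). The median of the members was 0.0386, and the lowest difference was that of Bms1, -0.16 (adjusted p 0.119). Without replicate 5 of antibiotics at 6 h the median was 0.0902 and 6 members were higher. How many of all genes were higher without it is not given. Pes1 had differences of 0.17, 0.17 and 0.18 at 0, 6 and 18 h.

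Whether the change after oxaliplatin differed between the arms was tested by the interaction, the change with antibiotics minus the change in water. At 18 h none of the 42 members passed, and 0.0451% of all genes were called more positive and 0.0602% more negative. For 34 members the change was more positive with antibiotics, and the median was 0.0741 against 0.00149 over all genes. An unadjusted p under 0.05 was found for 1893 of all 19938 genes and for 10 members (limma). The smallest adjusted p, 0.186, was that of Ddx18, at 0.19 ± 0.0567 (SE; 95% interval 0.0736 to 0.306). Nop58 had the highest value, 0.23 ± 0.0826 (95% interval 0.0589 to 0.398, adjusted p 0.309), and Lyar 0.19 ± 0.0653 (adjusted p 0.262). Utp20 had the lowest, -0.09. So 25 members were called in water and 2 with antibiotics, but for no single member was the difference between the arms shown by this test. For Polr1b, Rrp12, Bop1 and Pes1, chosen after their values were seen, the interaction was between 0.00222 and 0.01724, with 95% intervals from -0.145 to 0.154. At 6 h 0 members and 0% of all genes passed, and 1964 of all 19938 genes and 5 members had an unadjusted p under 0.05 (limma). The median of the members was -0.0462, or 0.00382 without replicate 5 of antibiotics at 6 h. The extremes were Utp20 at -0.26 and Nob1, the nuclease that makes the 3′ end of 18S RNA, at 0.09.

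The members also varied together within groups. After subtracting the group means, the mean correlation between pairs of members over the 30 arrays was 0.421, where it was 0.0369 between all genes, and 803 of the 861 pairs were above 0. The points share arrays, so this is a description of these 30 arrays and depends on their quality as well as on the tumours. The muscle-rich replicate 5 of antibiotics at 6 h, where the mean of the members was -0.13, was among them. Its part in the correlations was not tested. All genes include dimmer ones, unlike the members. The closest pair was Ftsj3, an RNA methyltransferase of 60S assembly, and Ddx21, at 0.889. The lowest was Nob1 and Npm1, at -0.476. Polr1a and Tsr1 followed the mean of the other members most closely, at 0.885 and 0.859, while Npm1 and Bop1 followed it least, at 0.117 and 0.182. On the muscle-rich array Polr1a and Tsr1 had their lowest levels of the 30 arrays, 9.805 and 9.786. The median residual SD was 0.0744 for the members and 0.115 for all genes.

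**Figure D5:**
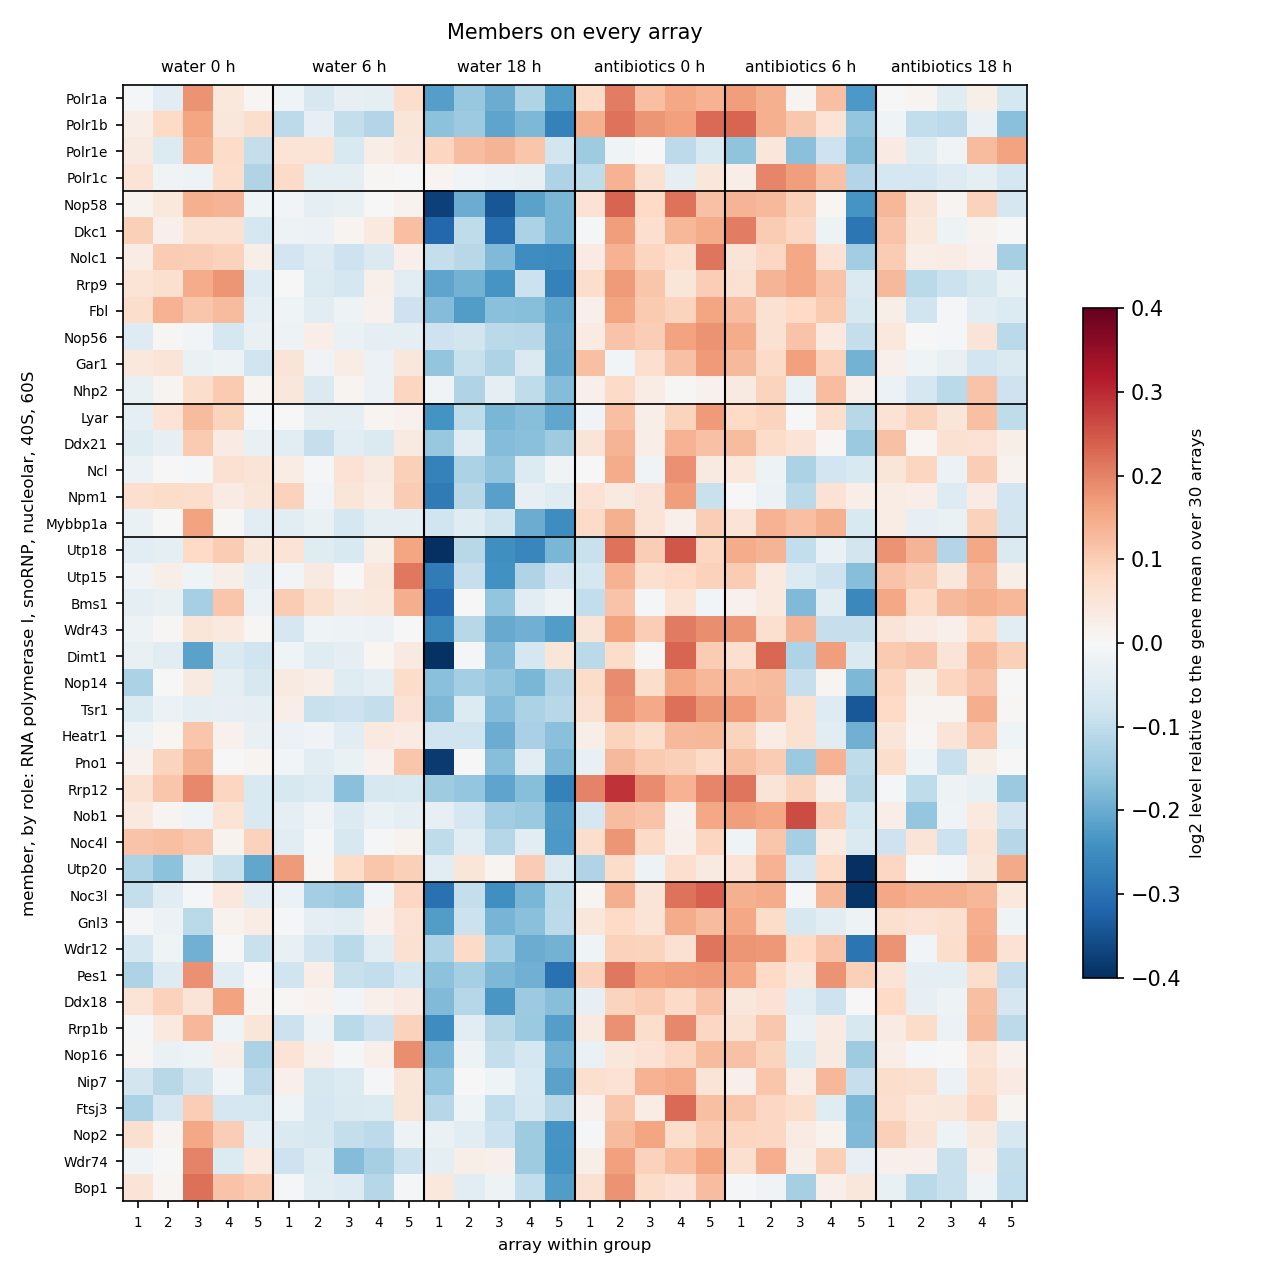
Level of each of the 42 members (rows, grouped by role) on each of the 30 arrays (columns, by group), as the log2 difference from the gene's mean; colours are limited to ±0.4, so values beyond it are drawn at the limit. The arrays of water at 18 h are mostly below the mean, and replicate 5 of antibiotics at 6 h is below the mean in most rows.

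The rest of the pathway was described through a list of other ribosome biogenesis genes, of which 99 had a row with 1 symbol. In water at 18 h against 0 h 28 of the 99 fell and 1 rose, with a median of -0.114, where 7.94% of all genes were called lower and 6.18% higher. The 5 with the smallest p were Bysl at -0.37 ± 0.0537 (SE; adjusted p 2.23e-05, limma), Pelp1 at -0.29, Tcof1 at -0.34, Krr1 at -0.32 and Ddx27 at -0.20. Bysl acts in 40S maturation, and Tcof1, treacle, supports polymerase I transcription. The member of the list that rose was Rrp36 at 0.18 (adjusted p 0.0282, limma), and the next highest was Dcaf13 at 0.16, which did not pass. With the 42 members, 53 of 141 genes of the pathway were lower. At 18 h 30 of the 99 were higher with antibiotics than in water and 0 lower, with a median of 0.127, where 4.52% of all genes were called higher. Krr1, at 0.31, had the smallest adjusted p of them (0.00184, limma). At 0 h none of the 99 passed (limma), and 91 differences were above 0. An unadjusted p under 0.05 was found for 29 of them and for 1317 of all 19938 genes (limma). In antibiotic-treated tumours 5 of the 99 fell from 0 to 18 h: Tcof1, Bysl, Tsr2, Pelp1 and Ddx27, by 0.26, 0.24, 0.30, 0.23 and 0.17, where 0.908% of all genes were called lower.

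Of the 12 genes of the Myc network, 1 fell in water at 18 h, Myc itself, a share near the 7.94% of all genes called lower. Its levels were 11.79, 11.75, 11.82, 11.81 and 11.72 at 0 h, 11.72, 11.68, 11.67, 11.66 and 11.62 at 6 h and 11.62, 11.58, 11.57, 11.55 and 11.46 at 18 h. The 18 h arrays lay below all 0 h arrays, with a change of -0.22 ± 0.047 (SE; adjusted p 0.00159, limma). With antibiotics Myc read 11.85, 11.93, 11.79, 11.82 and 11.90 at 0 h and 11.84, 11.64, 11.60, 11.84 and 11.55 at 18 h. These groups overlapped, and the change of -0.16 ± 0.047 did not pass (adjusted p 0.0898, limma). The difference between the arms at 18 h was 0.14 (adjusted p 0.068, limma) and did not pass either. Mxd4, a repressor that competes with Myc for the same partner, was lower with antibiotics at 18 h by -0.26 (adjusted p 0.013, limma). Mycn and Mycl were higher with antibiotics at 6 h, by 0.32 and 0.30 (adjusted p 0.0275 and 0.03, limma), where 1.13% of all genes were called higher. Both had low signals, with mean levels of 6.697 and 7.057 against a median of 7.519 over all genes.

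Some markers of other cell types and of T cells, the type of the EL4 line itself, differed between these groups. In water at 18 h against 0 h 4 of 8 endothelial markers were higher (Pecam1, Eng, Egfl7 and Cldn5, by 0.22, 0.33, 0.19 and 0.29), as were 2 of 12 macrophage markers (Lyz2 and Mpeg1, by 0.47 and 0.64), Dcn of 7 fibroblast markers, by 0.39, and Cd3d of 9 T cell markers, by 0.17, where 6.18% of all genes were called higher. All 8 endothelial markers had a change above 0, with a median of 0.205, as did 9 of the 12 macrophage markers, with a median of 0.106. The T cell markers were split, with 4 changes below 0, 5 above it and a median of 0.0171. Of 2 erythroid markers 1 was called higher. With antibiotics at 18 h against water 2 of 12 macrophage markers were lower (Cd68 and C1qb, at -0.53 and -0.51), and Cd3d was lower at -0.19, where 3.34% of all genes were called lower. All 12 macrophage markers had a difference below 0, with a median of -0.402 and 8 at an unadjusted p under 0.05, as did all 9 T cell markers, with a median of -0.124 and 5 at an unadjusted p under 0.05 (limma). Such a p was found for 3984 of all 19938 genes, 1804 of them lower. At 18 h all 7 fibroblast and all 8 neutrophil markers also had differences below 0, with medians of -0.225 and -0.0457. So did 7 of 8 endothelial and 8 of 10 skeletal muscle markers, while 6 of 9 keratinocyte markers were above 0. The macrophage differences were not limited to 18 h: all 12 were below 0 at 0 h and at 6 h, with medians of -0.192 and -0.238. The mean of the macrophage list ran from 0.0895 to 0.486 in water at 18 h and from -0.453 to 0.132 with antibiotics at 18 h. The mean of the endothelial list ran from -0.127 to 0.0657 in water at 0 h, from 0.044 to 0.254 in water at 18 h and from -0.24 to 0.155 with antibiotics at 18 h. That of the T cell list ran from -0.0233 to 0.158 in water at 18 h and from -0.13 to -0.00297 with antibiotics. The part of these cell types in the levels of the ribosome biogenesis factors was not tested.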

How the data were processed

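Total RNA of 30 tumour samples was amplified and labelled with biotin for Affymetrix arrays, with 1 array for each sample. The authors deposited log2 values, in a table of 28853 rows; the submitters' processing notes name Partek 6.6 with no role. The summary of probes and any normalisation behind these values are not given in the sources used here. The number of arrays limits the precision.

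Rows were named through the platform's probe table, which can be old: 21775 rows had 1 symbol, 1578 several and 5500 none here. The row with the highest mean was kept for the 998 symbols with more than 1, which gave 19938 genes. The values were used as deposited and fitted with limma 3.58.1 in R 4.3.3 (lmFit, eBayes) as 6 group means, with 24 residual degrees of freedom. Of 11 comparisons, each was tested two-sided, adjusted by Benjamini-Hochberg over all genes and called at an adjusted p under 0.05. The fit was tested on simulated data: when 200 of 19938 genes were changed between the arms at 18 h, it recovered 24% of changes of 0.2, 50% of 0.3, 88% of 0.5 and 100% of 1 on the log2 scale.

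The members and the lists of other genes were chosen with earlier results of these data known. Named in full were, within each role, the 3 members with the smallest p in water at 18 h against 0 h and the one with the highest change. Also named were the highest and lowest member in each comparison, and the members called (the 6 with the smallest p where more were) between the arms, in an interaction, in water at 6 h or with antibiotics at 18 h against 0 h. Promoters are RefSeq's. Alternatives were 2 normalisations, the mean over rows, brighter genes only, only the groups compared, a trended robust prior, array weights, leaving out the 3 arrays rich in skin or muscle markers, and leaving out each array in turn.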

Additional observations from a re-analysis of the deposited data

Results flagged for a closer look

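Within the groups of 5 arrays, 17 of 252 sets of member values had 1 array far from the other 4, by Dixon's test at its 95% level; chance alone flags about 5% of such sets. Of these, 4 fell on replicate 5 of antibiotics at 6 h, the array rich in skeletal muscle markers, where Gar1 stood at 10.8 (the next lowest array was at 11.06), Wdr12 at 10.3 (10.68), Nop2 at 10.3 (10.49) and Noc3l at 9.712 (10.1). Replicate 3 of water at 0 h was high in Mybbp1a at 11.29 (the next highest was 11.13) and in Ftsj3 at 10.15 (9.986), and low in Dimt1 at 10.04 (10.17). Replicate 2 of water at 18 h was high in Ddx21 at 11.55 (11.45) and in Wdr12 at 10.67 (10.47). Replicate 3 of water at 6 h was low in Polr1e at 9.684 (9.774) and in Rrp12 at 8.989 (9.093).

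The other 6 were on 6 further arrays. Polr1e was low at 9.671 (9.83) in replicate 5 of water at 18 h, and Noc4l at 9.949 (10.03) in replicate 4 of water at 0 h. In water at 6 h Utp15 was high at 10.41 (10.25) in replicate 5 and Pes1 at 10.37 (10.27) in replicate 2. With antibiotics Noc3l was low at 10.14 (10.24) in replicate 5 at 18 h, and Ddx18 at 10.99 (11.1) in replicate 1 at 0 h. No member's change after oxaliplatin was called different between the arms.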

How the results depend on the processing

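All medians of the 42 members moved by less than 0.0525, the spread of their mean between arrays of a group, in every alternative tried. Fits of only the groups compared, of genes above the median level and with the trended robust prior keep the group means. No median could move in those. Leaving out the 3 arrays rich in skin or muscle markers could move only comparisons with a 6 h group. The 0.0525 also exceeds some medians. That from 6 to 18 h with antibiotics turned from 0.00657 to -0.0353 without replicate 5 of antibiotics at 6 h. The count of members called depended on the setting, and no share of all genes is given beside the counts that follow. In water at 18 h against 0 h it was 25, 15 with only the groups compared, and 19 to 24 with 1 array left out. With antibiotics against water at 18 h it was 19, 9 with only the groups compared, 29 with genes above the median level and 12 to 21 with 1 array left out. In water at 18 h against 6 h it was 15, and 5 to 17 with 1 array left out. With antibiotics at 18 h against 0 h it was 2, 4 with array medians subtracted, 4 with quantile normalisation, 5 with genes above the median level, 5 with the trended robust prior and 7 with array weights. With antibiotics at 18 h against 6 h it was 0, 2 with quantile normalisation, 3 with genes above the median level, 1 with the trended robust prior, 2 with array weights, 3 without the 3 arrays rich in skin or muscle markers, and 0 to 4 with 1 array left out. With antibiotics against water at 6 h it was 1, 0 with array medians subtracted, 3 with quantile normalisation, 3 with genes above the median level, 0 with only the groups compared, 6 with array weights, 3 without the 3 arrays, and 0 to 6 with 1 array left out. At 0 h it was 0, 5 with array weights, 1 without the 3 arrays, and 0 to 1 with 1 array left out. In water at 6 h it was 0, 1 with only the groups compared and 3 with array weights. The causes were not tested, beyond the fewer arrays or genes of some settings. Nip7 in water at 18 h against 0 h turned from -0.01 to 0.0033 with quantile normalisation and to 0.0133 with array weights, and ran from -0.0367 to 0.0168 with 1 array left out, never past the threshold. A set of 82 changes of named members was followed through the settings, which leaves out members called only under an alternative. Of 656 values under the other settings, 39 lost their call and 12 gained one. Of 860 with 1 array left out, 105 lost it and 3 gained one. Both totals include changes not called in the main fit, which had no call to lose, so a larger share of the calls was lost.

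No paired analysis was possible because the labels number the samples through the whole series and give the groups no shared replicate numbers. In simulated data with 200 of 19938 genes changed, 24% of changes of 0.2 were called. This share does not carry over to the members, whose median residual SD was 0.0744 against 0.115 for all genes. The measured comparison between the arms at 18 h also called more genes, 665 lower and 901 higher. Members that did not pass may still have changed.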
